A study of Mus musculus with 6 samples.

Results

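This section describes 10 imprinted genes of the mouse, Rtl1, Dlk1, Snrpn, Peg3, Ube3a, Gnas, Grb10, Copg2, Mest and Igf2r, and the transcripts that overlap them, in the nucleus accumbens (NAc), which belongs to the ventral striatum and to the reward circuit. The members were all entries of the deposited event lists that carried the GENCODE identifier of 1 of these genes. They made up 763 of 440199 entries, which came to 235 of 132828 distinct events, in 10 of 16154 listed genes. The genes were selected on their listed events per strand and group in these same libraries, so differences between the groups at these genes are a description, without a test.

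Adult male C57BL/6N mice went through conditioned place preference (CPP) training, in which a compartment is paired with an injection, and NAc total RNA was sequenced. The saline group (3 libraries) received saline alone. The morphine group (3 libraries) received morphine on alternating sessions with saline. All mice were of the same strain, and no genetic change was introduced. The description of the series counts more mice per group than libraries, while the study presents a library as 1 mouse, so pooling cannot be settled here and the spread between libraries may be partly technical. The marker genes of medium spiny neurons that were looked up were listed in all 6 libraries, and so were Slc17a7 and Tbr1, markers of cortical neurons, and Ttr, a marker of the choroid plexus. Folr1, also of the choroid plexus, was listed in 3 libraries (saline 1, morphine 1 and morphine 2). These are entries and not levels, so the share of tissue from next to the NAc is not known, and its part in the results was not tested.

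Each list holds, for the transcripts assembled from 1 library, the alternative transcript starts and ends, the skipped exons, the retained introns and the alternative exon ends, with gene, position and strand. An event is either listed or not listed. The lists give no expression level, so a gene with more events has more assembled forms and not necessarily more RNA. In bulk tissue, fewer cells of a type and less RNA per cell cannot be told apart. The number of listed events ran from 54660 to 62209 per library. Relative sequencing depth was 1, 1.07 and 1.37 in the saline libraries and 1.20, 1.59 and 1.29 in the morphine libraries, with a morphine to saline ratio of means of 1.188 (two-sided exact permutation p = 0.3, n = 3 per group). The estimate rests on only 91 values, from the authors' table of 31 differential transcripts. The part of depth in the results that follow was not tested. An event missing from a list may still have been present in the tissue.

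Imprinted genes are expressed mainly from the allele of 1 parent. They lie in clusters, and in many clusters a long non-coding RNA (lncRNA) is transcribed from the allele on which the neighbouring coding genes are silent, often on the strand opposite to one of them. The Dlk1 cluster carries the paternally expressed Dlk1 and Rtl1 and the maternally expressed lncRNAs Meg3, Rian and Mirg, which host clusters of small nucleolar RNAs (snoRNAs) and microRNAs (miRNAs). In the Snrpn cluster, a long antisense transcript from the paternal allele runs into Ube3a and silences the paternal copy in neurons. At Igf2r, the antisense lncRNA Airn is transcribed from the paternal allele. Which allele a transcript came from was not measured in these libraries.

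The sequences that carry the description of the Dlk1 cluster are shown first. Exons A, B and C belong to Rian and lie on the plus strand of chromosome 12 (GRCm38), at chr12:109606214-109606343, chr12:109607414-109607496 and chr12:109642565-109642652. They are the 3 skipped exons with annotated ends at both sides that were listed in every morphine library and in no saline library. They measured 130, 83 and 88 nt, and the letters are those of the annotated transcripts.
Rian exon A: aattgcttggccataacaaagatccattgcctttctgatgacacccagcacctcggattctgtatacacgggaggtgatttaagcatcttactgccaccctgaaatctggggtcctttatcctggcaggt
Rian exon B: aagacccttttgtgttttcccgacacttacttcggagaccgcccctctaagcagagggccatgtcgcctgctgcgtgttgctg
Rian exon C: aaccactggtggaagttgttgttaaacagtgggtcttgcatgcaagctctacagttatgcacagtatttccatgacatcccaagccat

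The snoRNA Gm23600 (chr12:109643748-109643818, plus strand) is shown because it lies inside an intron that was listed as retained in the 3 morphine libraries alone. Its capitals mark a match to TGATGA, the core of the C box that is typical of the box C/D class of snoRNAs. The match is by letters alone, and whether this stretch is the C box of Gm23600 was not tested.
Gm23600: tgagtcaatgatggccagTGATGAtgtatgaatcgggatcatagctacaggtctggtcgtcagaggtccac

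The next sequences are miRNAs encoded opposite to Rtl1. They are shown because the first plus-strand exon that all 6 libraries listed under the Rtl1 identifier lies just upstream of them, and because, as background, such miRNAs pair fully with the Rtl1 mRNA. Of the 6 plus-strand miRNA genes within the Rtl1 span, 3 lie downstream of that start. Letters are from RefSeq (GRCm38.p6), capitals mark the seed (bases 2 to 8), and no 2 of the 5 mature forms share a seed.
mmu-miR-434-5p: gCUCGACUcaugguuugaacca
mmu-miR-434-3p: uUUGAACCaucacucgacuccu
mmu-miR-432: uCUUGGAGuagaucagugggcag
mmu-miR-136-5p: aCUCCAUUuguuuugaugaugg
mmu-miR-136-3p: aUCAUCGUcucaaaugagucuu

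Rtl1 encodes a protein derived from a retrotransposon that is needed in the placenta and lies on the minus strand at chr12:109589193-109600330. Under its identifier the saline libraries listed 3, 2 and 4 events, and the morphine libraries listed 49, 65 and 23. The groups did not overlap, and the lowest morphine library had more than all 3 saline libraries together. The mean was 3 ± 1 (SD, n = 3) in the saline group and 45.7 ± 21.2 (SD, n = 3) in the morphine group, a difference of 42.7 events. Rtl1 was the only member whose libraries did not overlap, beside 2.77% of all 16154 genes, 1.8% with the morphine libraries higher and 0.966% with the saline libraries higher. No test is given, and with 3 against 3 libraries an exact permutation test gives no p under 0.1.

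None of the 91 events listed under Rtl1 was on the strand of Rtl1. All 91 lay on the plus strand, and no other listed gene had as many events on the strand opposite to its annotation. Only 3 of them fell within the annotated span of Rtl1. Rian, a nuclear lncRNA that starts 3610 bp beyond the Rtl1 span (chr12:109603940-109661716, plus strand), held 85 of the 91, of which 10 also overlapped Gm26945. A further 1 lay in Mirg, and 5 lay in no annotated plus-strand gene. Both boundaries matched annotated exon boundaries for 63 events (69.2%), where a start or end was judged by its splice side alone. The identifiers of Rian, Meg3 and Mirg themselves carried no event in any library. The entries filed under Rtl1 are thus, by position and strand, mostly entries of Rian, and they say nothing about the Rtl1 mRNA.

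**Figure D1:**
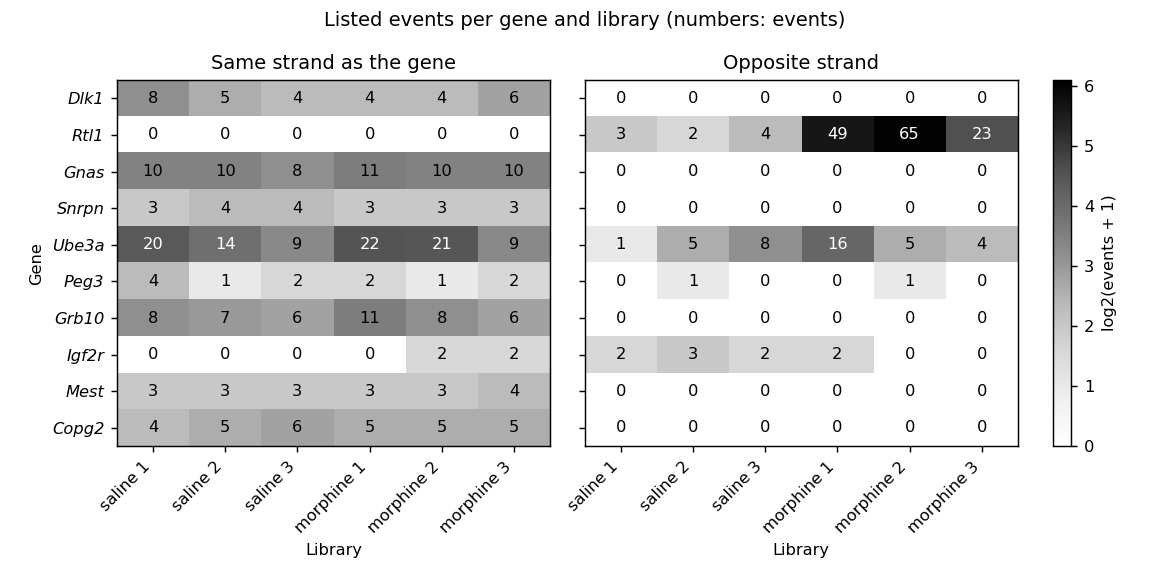
Number of listed events per gene (rows) and library (columns), on the strand of the gene (left) and on the opposite strand (right), with shading by log2(events + 1). Rtl1 has 0 events on its own strand in all libraries and 49, 65 and 23 on the opposite strand in the morphine libraries, against 3, 2 and 4 in the saline libraries.

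The transcript starts at this locus were shared between groups. All 6 libraries listed a plus-strand start whose first exon ended at position 109593700 and began between positions 109593557 and 109593586. This exon lies within the Rtl1 span, antisense to it, and its splice-side end is not annotated. A second start, with its splice side at 109599939, was listed in morphine 2 and morphine 3. The transcript end at the last exon of Rian (splice side 109660746) was listed in saline 1, saline 3, morphine 1 and morphine 3. Saline 2 listed an end at 109599816, close to the Rtl1 span's end, and morphine 2 an end at 109742062 in Mirg. Starts inside the Rtl1 span and ends at the last exon of Rian were thus listed in both groups.

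The groups differed in the internal forms listed under the Rtl1 identifier. The only end that saline 2 listed, at 109599816, lies before the annotated start of Rian. Its 0 internal events therefore do not show that these forms were missing. Skipped exons numbered 0, 0 and 0 in the saline libraries and 5, 12 and 8 in the morphine libraries. Retained introns numbered 1, 0 and 0 against 21, 24 and 8, and alternative exon ends 0, 0 and 2 against 21, 26 and 4. Morphine 3 had the fewest of the morphine libraries in the last pair of classes but not among skipped exons. Of 28 distinct splice junctions named by these events, 16 (57.1%) were annotated, and the libraries listed 1, 0 and 0 in the saline group and 23, 27 and 21 in the morphine group. Internal events over all genes had a morphine to saline ratio of means of 1.12 (two-sided exact permutation p = 0.2, n = 3 per group).

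**Figure D2:**
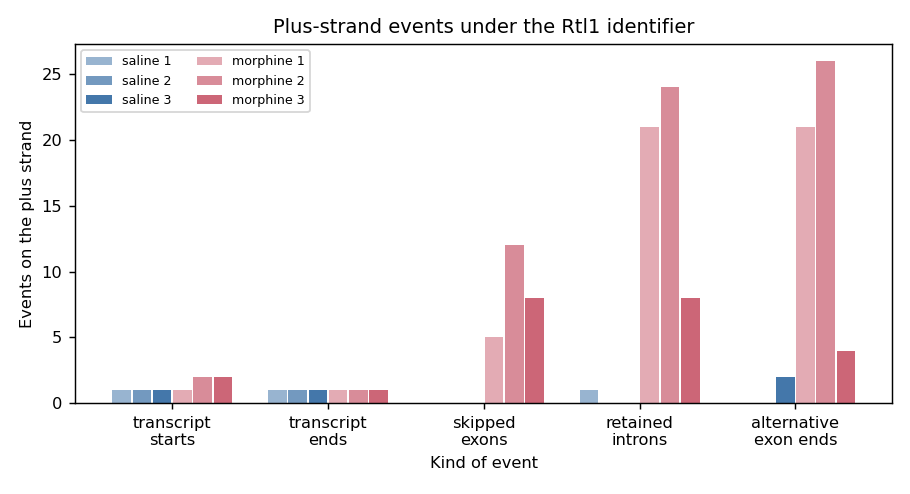
Number of plus-strand events under the Rtl1 identifier by kind of event (horizontal axis), with 1 bar per library, blue for saline and red for morphine. Starts and ends number 1 or 2 in every library, whereas skipped exons are at 0 in all saline libraries and at 5, 12 and 8 in the morphine libraries.

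Of the 91 events, 9 were listed in all 3 morphine libraries and in no saline library, beside 0.381% of all events. They were 5 skipped exons, 2 retained introns and 2 alternative exon ends, and all 9 lay in Rian. Besides exons A, B and C, the skipped exons were one of 176 nt at positions 109617174 to 109617349 and one of 99 nt at 109644804 to 109644902. The first extends an annotated exon that begins at 109617211, and its longer and shorter forms were both listed in saline 3, morphine 1 and morphine 2. Neither end of the second is annotated. A retained intron of 1342 nt between exon ends 109643461 and 109644804 holds Gm23600, and one of 855 nt lies between 109650157 and 109651013. The alternative exon ends were 2 forms of the exon that begins at 109643414, one of 48 nt and one that runs on to 109644902. These 2 forms share boundaries with the retained intron of 1342 nt and the skipped exon of 99 nt. The 9 events are therefore not 9 separate splice choices. Across all genes the share of events listed in the 3 morphine libraries alone was 0.606% for skipped exons, 0.502% for retained introns and 0.44% for alternative exon ends.

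Among all 4461 events on the strand opposite to their gene, 17 (0.381%) were listed in the morphine libraries alone, and the 9 of Rian were among them. The other events under the Rtl1 identifier were less regularly listed. Of the 91 events, 55 were in 1 library. A single one, the start at 109593700 inside the Rtl1 span and outside Rian, was in all 6. A retained intron of 102 nt just before the annotated start of Rian, between positions 109603835 and 109603938, was listed in saline 1 and in all morphine libraries. Rian carries 13 annotated snoRNA genes and 4 miRNA genes within its span, and 5 of the snoRNAs lie inside an intron that at least 1 library listed as retained.

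**Figure D3:**
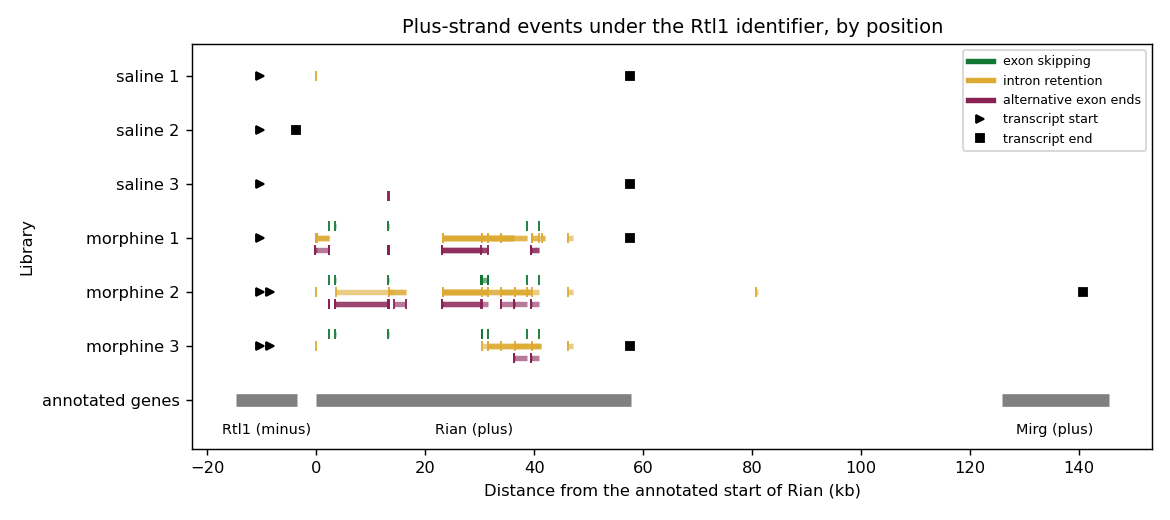
Positions of plus-strand events under the Rtl1 identifier, by distance from the annotated start of Rian in kb, with 1 row per library and the annotated genes in grey below. Arrowheads (starts) line up in all 6 libraries inside the Rtl1 span, while the coloured internal events fill Rian in the 3 morphine libraries and are 1, 0 and 2 in number in the saline libraries.

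Dlk1, which encodes a transmembrane ligand that resembles the ligands of Notch, lies upstream in the same cluster on the plus strand (chr12:109452823-109463336). It had 8, 5 and 4 events in the saline libraries and 4, 4 and 6 in the morphine libraries, and these ranges overlapped. All 12 were on its own strand. Its 3 starts with splice sides at 109453294, 109453726 and 109455048 were listed in every library, and its end at 109460118 in all but morphine 3, which listed 109460046. A pair of exon ends in the coding sequence, at 109459832 and 109459892, was listed in saline 1 alone.

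Ube3a encodes a ubiquitin ligase whose maternal loss causes Angelman syndrome, and lies on the plus strand at chr7:59228750-59311536. It had 21, 19 and 17 events in the saline libraries and 39, 30 and 14 in the morphine libraries. The lowest library of all was a morphine library, so the groups overlapped. Of its 77 events, 46 were on its own strand, 27 on the opposite strand, and 4 joined forms from both strands. Events on its own strand numbered 20, 14 and 9 against 22, 21 and 9. Annotated boundaries, judged for starts and ends by the splice side alone, were found for 97.8% of them. Those on the opposite strand numbered 1, 5 and 8 against 16, 5 and 4, and 11.1% had annotated boundaries.

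On its own strand, Ube3a had 3 events in every library, namely the start at 59229271, a retained intron between 59286259 and 59286868, and a group of skipped exons from 59240967 to 59243469. The first exon of that group alone (67 nt, positions 59240967 to 59241033) was listed as skipped in the 3 morphine libraries and in no saline library. The reverse held for a start with its splice side at 59288561, which was listed in the 3 saline libraries alone. Among all transcript starts and ends, 0.252% were listed in the saline libraries alone and 0.287% in the morphine libraries alone.

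The opposite-strand events of Ube3a ran from 59193455 to 59789681, and only 5 of 27 lay within Ube3a. In Snhg14 (chr7:59307924-59975759, minus strand), the host of the long antisense transcript and of snoRNA clusters, lay 20 of them. A further 1 was in 9330162G02Rik, and 6 were in no annotated gene of that strand. None was shared by all 3 libraries of 1 group and missing from the other group. The most widely listed were an end at 59198143, beyond the start of Ube3a, in saline 1, saline 3, morphine 1 and morphine 3, and a start at 59330560 in saline 2, saline 3 and morphine 3. An exon of 167 nt antisense to Ube3a, from 59276602 to 59276768, was listed as skipped in saline 3, morphine 1 and morphine 3. Minus-strand events within the Ube3a span and on either side of it were thus listed in both groups.

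The 4 events that joined both strands were listed 0, 0 and 0 times in the saline libraries and 1, 4 and 1 times in the morphine libraries. One of them was present in all 3 morphine libraries, with a spliced form on the minus strand and a retained form on the plus strand between 59275264 and 59276602 (1337 nt). A retained form on one strand and a spliced form on the other are different transcripts, and such a pair is no intron retention of a single RNA. Pairs of this kind made up 0.289% of all events. Over all genes they numbered 86, 90 and 94 in the saline libraries and 104, 116 and 87 in the morphine libraries, so that the groups overlapped.

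**Figure D4:**
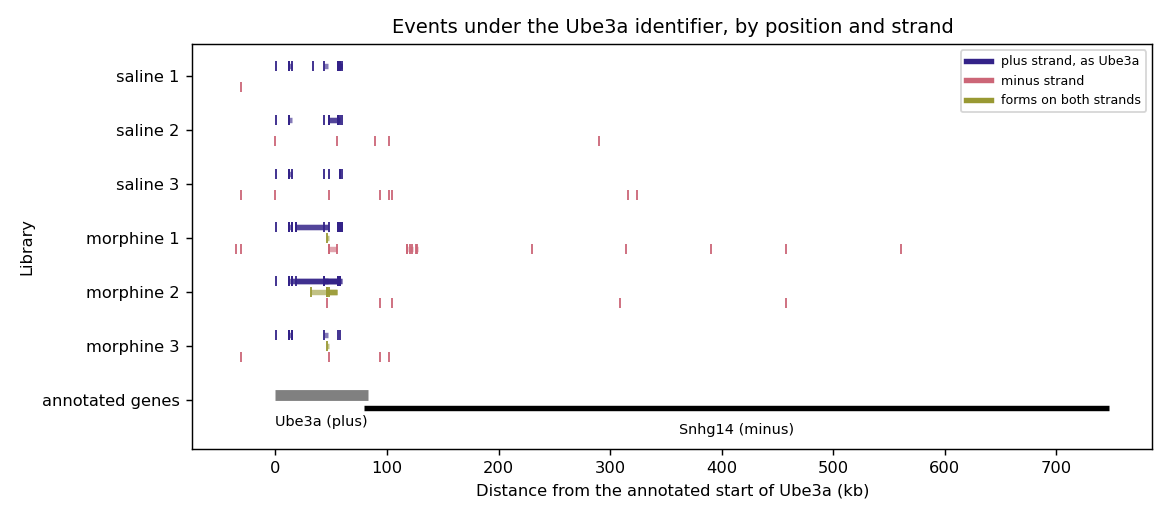
Positions of events under the Ube3a identifier, by distance from the annotated start of Ube3a in kb, with 1 row per library, coloured by strand, and Ube3a and Snhg14 drawn below. Starts and ends are drawn at their splice side. By these positions, plus-strand events stay within Ube3a in all 6 libraries, although the first exons of some starts begin upstream of it. Minus-strand events spread over Snhg14 and number 16 in morphine 1 against 1 to 8 in the other libraries.

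Snrpn encodes a protein of the splicing machinery and lies at the other end of this cluster (chr7:59982495-60140219, minus strand). It had 3, 4 and 4 events in the saline libraries and 3, 3 and 3 in the morphine libraries. Starts at 60005036 and 60140141 were listed in all 6 libraries, and one at 60047889 in saline 2 and saline 3. The usual end at 59983277 was missing from saline 3, which listed 59980639. No Snrpn event was on the opposite strand.

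Igf2r encodes a receptor that removes insulin-like growth factor 2 and lies on the minus strand at chr17:12682406-12769664. Its identifier carried 2, 3 and 2 events in the saline libraries and 2, 2 and 2 in the morphine libraries, but their strands differed. On the plus strand, that of Airn (chr17:12741311-12860136), there were 2, 3 and 2 events against 2, 0 and 0. On the strand of Igf2r there were 0, 0 and 0 against 0, 2 and 2. Each library thus listed only 1 of the strands, the saline libraries and morphine 1 that of Airn, and morphine 2 and morphine 3 that of Igf2r. The groups overlapped through morphine 1, and since both RNAs are filed under 1 identifier, a missing strand does not show that its transcript was missing.

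All 3 plus-strand events lay in Airn by their splice sides, which matched annotated exon boundaries. The start with its splice side at 12741424 was listed in the saline libraries and morphine 1, with first exons beginning at 12741364 in saline 1 and saline 2, at 12741104 in saline 3 and at 12740821 in morphine 1. The end at 12859541, the last exon of Airn, was listed in all 3 saline libraries and in no morphine library. A nearer end at 12814496 was listed in saline 2 and morphine 1. On the minus strand, morphine 2 and morphine 3 listed the annotated first exon of Igf2r (12769400 to 12769664) and its last (12682406 to 12684126).

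The Airn promoter is printed because the listed plus-strand starts fall in or close to it. It covers chr17:12741061-12741360 on the plus strand (RefSeq, GRCm38.p6), 250 bases before to 50 after the start, and capitals mark CG dinucleotides, the sites of DNA methylation. The window holds 3 CG, and 76.7% of 32851 promoters of this length hold at least as many, with a median of 7.
Airn promoter: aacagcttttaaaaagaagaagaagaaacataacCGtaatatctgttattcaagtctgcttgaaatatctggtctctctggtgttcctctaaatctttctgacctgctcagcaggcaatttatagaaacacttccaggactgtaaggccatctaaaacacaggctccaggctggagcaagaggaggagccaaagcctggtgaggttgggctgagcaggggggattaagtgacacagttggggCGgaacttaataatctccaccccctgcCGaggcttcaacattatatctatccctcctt
The Igf2r promoter of the same length holds 34 CG, which 7.73% of promoters reach, and the Rian promoter holds 0. DNA methylation was not measured.

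Peg3 encodes a zinc finger protein expressed from the paternal allele, and lies at chr7:6703892-6730431 on the minus strand. It had 4, 2 and 2 events in the saline libraries and 2, 2 and 2 in the morphine libraries. Its start at 6730258 was in every library, and its end at 6711731 in saline 1, saline 3, morphine 1 and morphine 3. The other 2 libraries each listed a plus-strand end within Peg3 in no annotated gene, at 6708045 in saline 2 and at 6707497 in morphine 2. The strand of the listed end thus varied within both groups.

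Gnas is a locus with several promoters of differing imprint, whose downstream exons encode the stimulatory G protein subunit Gsα, and lies on the plus strand at chr2:174284320-174346744. It had 10, 10 and 8 events in the saline libraries and 11, 10 and 10 in the morphine libraries. Of its 12 events, 6 (50%) were in every library and none was in a single library. Starts with splice sides at 174284508, 174300217, 174327941 and 174330434 were listed in all 6 libraries. A further start at 174285477 and a skipped exon from 174288491 to 174288586 occurred in saline 3 and morphine 1 only.

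The long and short forms of Gsα, which differ in a cassette exon of 45 nt, were both listed, and their junctions are shown here. The preceding exon ends at 174334284, the cassette exon covers 174336747 to 174336791, and the next exon begins at 174341653 or, 3 bases upstream, at 174341650. Capitals mark the cassette exon in the long form and the 3 added bases in the last form.
Gnas long form: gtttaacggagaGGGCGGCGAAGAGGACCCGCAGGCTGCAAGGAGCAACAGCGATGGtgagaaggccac
Gnas short form: gtttaacggagatgagaaggccac
Gnas short form with 3 bases: gtttaacggagaTAGtgagaaggccac
The long form and the short form with 3 bases were listed in all 6 libraries. The plain short form was listed in saline 1, saline 2, morphine 2 and morphine 3. Another entry, in all libraries but saline 3, placed the end of the cassette exon 1 base earlier and the next exon at 174341649. This junction is not annotated. Both of its sides are shifted by 1 base, so it may be the full cassette exon joined at 174341650, which was not tested. No Gnas form separated the groups.

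Grb10 encodes an adaptor that dampens insulin and growth factor receptor signalling, and is expressed from the paternal allele in neurons. It lies on the minus strand at chr11:11930508-12038683, and had 8, 7 and 6 events in the saline libraries and 11, 8 and 6 in the morphine libraries. A cassette exon of 165 nt in the coding sequence (chr11:11954744-11954908) was listed as skipped in all 6 libraries. Its length is a multiple of 3, and it is printed as the splice choice of Grb10 that every library shared.
Grb10 cassette exon: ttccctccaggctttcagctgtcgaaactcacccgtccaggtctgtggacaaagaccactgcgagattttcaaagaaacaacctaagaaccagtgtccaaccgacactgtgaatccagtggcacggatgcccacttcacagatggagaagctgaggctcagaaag
Starts at 12025838, 12026662, 12027903 and 12037192 and the end at 11933609 were also in all 6 libraries, and 3 of its 11 events, 2 starts and a skipped exon, were in morphine 1 alone.

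**Figure D5:**
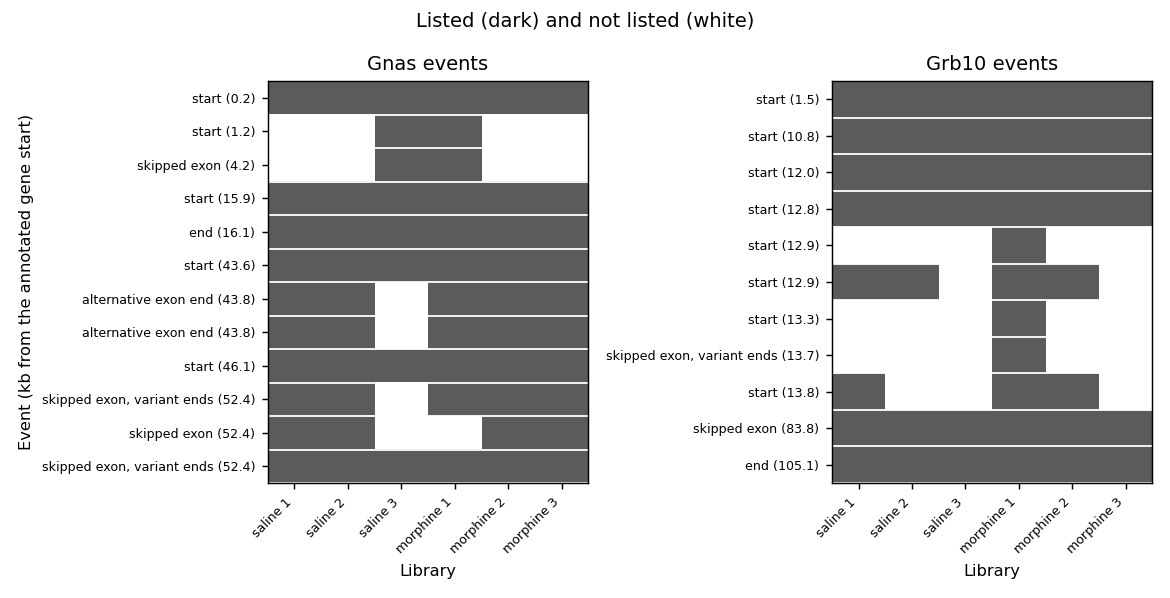
Events of Gnas (left) and Grb10 (right) in transcript order, labelled by kind and distance from the annotated gene start in kb, with dark cells for listed and white cells for not listed in each of the 6 libraries. In Gnas 6 of 12 events and in Grb10 6 of 11 are dark in all 6 libraries, and no row separates the saline from the morphine libraries.

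Mest and Copg2 lie tail to tail on chromosome 6, Mest on the plus strand (chr6:30723547-30748465) and Copg2 on the minus strand (chr6:30747554-30896794). Mest, a paternally expressed gene of the hydrolase family, had 3, 3 and 3 events in the saline libraries and 3, 3 and 4 in the morphine libraries. Its start at 30738335 and end at 30747052 were in every library. An exon of 104 nt from 30740240 to 30740343 was listed as skipped in saline 3 and in all morphine libraries. A retained intron from 30740824 to 30742141, which holds Mir335 (30741299 to 30741396), was listed in saline 1, saline 2 and morphine 3. Each library thus listed at least 1 of these forms, and morphine 3 listed both.

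Copg2, which encodes a subunit of the coat of transport vesicles, had 4, 5 and 6 events in the saline libraries and 5, 5 and 5 in the morphine libraries. Its start at 30896661 was in all libraries but morphine 2. Of its ends, that at 30748987 was in every library, that at 30749504 in all but morphine 3, that at 30750635 in saline 2, saline 3 and morphine 2, and that at 30803116 in saline 1, morphine 1 and morphine 3. No event of Mest or Copg2 was filed on the opposite strand, although the genes overlap at their ends.

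Over the 10 genes, the opposite strand held 123 of 235 events (52.3%), of which 91 were under Rtl1, 27 under Ube3a, 3 under Igf2r and 2 under Peg3. Over all genes it held 3.38% of events, between 1.43% and 2.22% per library, and 10.8% of genes had at least 1 such event. Within a library, the share among the 10 genes was 9.09%, 18.3% and 25% in the saline group and 51.9%, 53.8% and 36% in the morphine group. The pooled share thus lay above that of every saline library and of morphine 1 and morphine 3. The groups did not overlap, but this share includes Rtl1, all of whose events were on the opposite strand. Among the other members no single gene separated the groups in this share. For Ube3a it was 4.76%, 26.3% and 47.1% in the saline libraries and 41.0%, 16.7% and 28.6% in the morphine libraries. The pooled share among the other 9 members was 22.2%. Since the genes were chosen partly for their overlapping transcripts, this share is a description. The libraries were made with a directional kit, per the study's methods. An antisense transcript that overlaps a coding gene can be assembled and filed under that gene's identifier, so event counts by identifier join both strands.

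By sharing, 25 of 235 events (10.6%) were in all 6 libraries, beside 20.5% over all genes, and 52.8% were in 1 library, beside 50.5%. The mix of classes differed, with 155 internal events among the 235 and 56897 among the 132828 of all genes. Of internal events, 2.58% were in all 6 libraries, beside 8.07% over all genes. Of transcript starts and ends, 26.25% were, beside 29.8%. The genes varied widely. The share in all 6 libraries was 54.5% for Grb10, 50% for Gnas and Mest, 3.90% for Ube3a, and for Rtl1 it was 1 event of 91. Group-specific events (3 of 3 libraries of 1 group, 0 of 3 of the other) numbered 13, beside 0.658% of all events. These 13 were 9 under Rtl1, 3 under Ube3a and 1 under Igf2r, and 11 were in the morphine libraries and 2 in the saline libraries, beside 0.381% and 0.277% of all events. Several of the 9 share boundaries, so they are not separate splice choices. The other 7 genes had none of the 13. With at least 2 of 3 libraries of 1 group and 0 of the other, 43 events were counted, beside 5.74% of all events.

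A wider list of 68 other imprinted genes was looked up in the same files. Of these, 46 were listed with 286 events, and 40 were listed in all 6 libraries. Of the 286 events, 1 was in all morphine libraries alone and 1 in all saline libraries alone, beside 0.381% and 0.277% of all events. The first was a start of Begain at 109052952, and Begain had 4, 4 and 4 events in the saline libraries and 5, 5 and 5 in the morphine libraries. The second was a start filed on the opposite strand of Tspan32 at 143007763, and Tspan32 had 2, 2 and 2 events in the saline libraries and 0, 0 and 0 in the morphine libraries. Opposite-strand events were found in 8 of these genes. Nnat, a paternally expressed gene of neurons, had 11 events in every library.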

How the data were processed

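NAc total RNA of 3 saline and 3 morphine libraries was analysed, grouped by the treatment label of each sample. Replicates are numbered by accession and the numbers are only names. The authors prepared directional libraries, mapped reads with HISAT2 and assembled transcripts with StringTie. The build was not given in the sources used here. In the deposited lists, 92.8% of the retained introns and 82.5% of the skipped exons on the members' chromosomes matched GENCODE M21 on GRCm38, and 99.2% of gene identifiers were found there. Positions are on GRCm38, counted from 1. For a retained intron they are the flanking exon bases.

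Each deposited list has event type, gene, position, pattern and strand. Its column named FPKM held only whole numbers at or below 0, so it was not used as a level. The authors' deposited table of differential transcripts holds raw counts, FPKM and the authors' fold changes and p-values. Its counts and FPKM served only for the relative depth (values with at least 10 counts), and the authors' comparison columns were not used. The total read number of each library is not known from these files.

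Types of event (20) were reduced to 12 classes in 4 families, with both forms of a skipped exon or retained intron as 1 event. Each alternative exon end counted as 1 event, so 1 splice choice can enter as several events. The identity of an event was its gene, class, strand and boundaries, and that of starts and ends their splice-side position. Only this position of a start or end was compared with annotated exon boundaries. A pair with forms on both strands was counted apart. An event is called group-specific when 3 of 3 libraries of 1 group list it and 0 of 3 of the other do. Counts per library were compared by the two-sided exact permutation test where stated, checked on simulated data. The genes the text names are all 10 members, and the events it names are those that are group-specific, those in all 6 libraries, those on the opposite strand and the main starts and ends. The members, the list of other imprinted genes and the markers were chosen with earlier results of these data known. Sequences are from GENCODE M21 transcripts and from RefSeq, in which 9 of 10 members had a promoter entry. The alternatives were full identity of all coordinates, unmerged entries, own strand only, no transcript ends, shares of all events (scaled to the mean number of events per library), at least 2 of 3 libraries, and each library left out. Values were computed with pandas 2.3.3, numpy 2.4.6 and scipy 1.17.1 in Python 3.11.15, and plotted with matplotlib 3.10.9.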

Additional observations from a re-analysis of the deposited data

How the results depend on the processing

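Rtl1 kept the morphine libraries above the saline libraries under each alternative that holds its events. On the gene's own strand alone, 0 members were without overlap, since Rtl1 has no event there. With 1 library left out, the number of such members ran from 1 to 2. The second was Snrpn without saline 1 and Ube3a without morphine 3. The 13 group-specific events became 20 with all coordinates and the pattern as identity, 2 on the genes' own strand, 43 with at least 2 of 3 libraries, and 4 without Rtl1, an alternative chosen after seeing the data. With 1 library left out they ran from 13 to 30, with 23 without morphine 1 and 30 without morphine 3. The rule then asked only for the remaining libraries of a group. Neither this count nor that of members without overlap could therefore fall. The opposite-strand share of 52.3% became 9.02% over events that overlap the annotated span of their gene and 22.2% without Rtl1, and ran from 46.8% to 55.9% with 1 library left out. Of 123 opposite-strand events, 110 overlapped an annotated gene of their strand, and 69 did so with both boundaries annotated. The share of events in all 6 libraries was 6.28% with full identity and 16.7% without Rtl1. Apart from such looser rules, the cause of these shifts was not tested. The difference of 42.7 events under Rtl1 was 74 with full identity and 79 with unmerged entries, and 33 to 54 with 1 library left out. That of Ube3a, 8.67 events, was 19.7 with full identity, 20.3 with unmerged entries, 3 on its own strand, 3 without morphine 1 and 15.5 without morphine 3. Of 110 recomputed differences for single genes, 103 moved by at most the spread between libraries, and no test was made on them. No paired analysis was possible because the labels give no shared replicate numbers. Whether depth or the assembly shaped the lists was not tested, 3 libraries per group limit what can be tested, and no level was measured.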
